A study of Mus musculus with 3 samples.

Results

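The genes described here encode the T cell coreceptors CD4 and CD8 and the transcription factors that set or accompany the choice between them. They were Cd4, Cd8a, Cd8b1, Zbtb7b, Runx1, Runx3, Cbfb, Tox, Eomes and Tbx21, 10 of the 17857 genes in the deposited count table, and all 10 had enough reads to be described. The genes were chosen by name, with the uneven Cd4 and Cd8a read counts of these same libraries already known. Their levels, and how they varied with the Cd4 to Cd8a ratio, are therefore given as a description and without a test.

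CD4 and CD8 sit beside the T cell receptor, where CD4 binds class II and CD8 binds class I molecules of the major histocompatibility complex, and a mature T cell of the alpha beta lineage normally keeps only 1 of them. In the thymus the zinc finger factor ThPOK, encoded by Zbtb7b, secures the CD4 fate, while RUNX factors bound to their partner CBF-beta silence Cd4 and keep Cd8 genes active in the CD8 fate. The same proteins stay in use in mature T cells of lymph nodes, and RUNX3, EOMES and T-bet also serve natural killer (NK) cells.

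The series has 1 group of 3 bulk RNA libraries, named replicates 1, 2 and 3. Each came from a repeat experiment on pooled lymph nodes draining untreated B16F10 melanomas, grown on both thighs of C57BL/6J mice and taken at day 14. Cells that carried Ly6C and c-kit and no CD11c were sorted, and 8 ng of total RNA went into each stranded total RNA library. There was no control population. How many mice went into a pool is not stated in the labels, and a pool gives no value per animal.

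The libraries held 9077195, 13885509 and 13861430 reads, and levels are given in CPM (counts scaled to a common library size) for replicates 1, 2 and 3, in that sequence. Of the genes that define the sort, Kit (c-kit) was read at 9.83, 5.35 and 5.92 CPM, and Itgax, which encodes the CD11c that was selected against, at 26.9, 43.2 and 24.0 CPM. The Ly6C genes ran opposite ways: Ly6c2 was read at 11.5, 121 and 41.2 CPM, in the library order of Cd8a, and Ly6c1 at 19.1, 4.28 and 17.6 CPM, lowest in replicate 2. T cell markers (7 genes) summed to 1888, 1617 and 2122 CPM. The libraries also stood apart in markers of other cells: macrophage markers (5) summed to 893, 204 and 239 CPM, erythroid markers (4) to 2910, 37.7 and 209, neutrophil markers (4) to 161, 64.5 and 649, and B cell markers (4) to 153, 60.8 and 95.3. Markers of plasmacytoid dendritic cells (5), which can carry CD4 or CD8 alpha, summed to 175, 168 and 124 CPM. The largest part of each sum was Pacsin1, even at 66.6, 68.0 and 68.0 CPM, while Siglech was read at 29.7, 23.2 and 6.30 CPM. Thymocyte markers (4) summed to 38.4, 15.98 and 26.8 CPM. Vsig4, Epor and Ptcra, a macrophage, an erythroid and a thymocyte marker, had no reads in replicate 2, and no other marker was at 0. The part of these cells in the levels below was not tested. In bulk RNA, fewer cells of a type and less RNA per cell cannot be told apart. The spread given is that between 3 libraries, which may be technical, and intervals are 95% counting intervals that leave out every other source of error.

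Promoter windows from RefSeq (build GRCm38.p6, from 250 bases before to 50 bases after an annotated start) were at hand for 7 of the 10 genes, 10 windows in all. The 4 printed here are those with a match to a RUNX motif, shown because RUNX factors act on the genes of both fates and because 2 of the windows belong to RUNX genes themselves. Capitals mark TGTGGT or TGCGGT on either strand, so that a match on the other strand reads ACCACA or ACCGCA.
Cd8a, chr6:71373177-71373476, plus strand: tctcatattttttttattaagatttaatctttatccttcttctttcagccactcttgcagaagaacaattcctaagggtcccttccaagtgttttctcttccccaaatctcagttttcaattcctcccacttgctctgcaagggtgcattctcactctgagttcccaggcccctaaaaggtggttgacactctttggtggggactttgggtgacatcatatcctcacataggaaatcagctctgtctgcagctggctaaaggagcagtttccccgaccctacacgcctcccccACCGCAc
Runx3, first start, chr4:135120395-135120694, plus strand: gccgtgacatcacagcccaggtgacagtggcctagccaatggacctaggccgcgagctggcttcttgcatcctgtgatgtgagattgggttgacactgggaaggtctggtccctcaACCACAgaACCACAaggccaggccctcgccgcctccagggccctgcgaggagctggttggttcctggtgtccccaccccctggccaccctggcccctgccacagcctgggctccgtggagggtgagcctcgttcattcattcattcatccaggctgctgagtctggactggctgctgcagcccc
Runx1, first start, chr16:92826025-92826324, minus strand: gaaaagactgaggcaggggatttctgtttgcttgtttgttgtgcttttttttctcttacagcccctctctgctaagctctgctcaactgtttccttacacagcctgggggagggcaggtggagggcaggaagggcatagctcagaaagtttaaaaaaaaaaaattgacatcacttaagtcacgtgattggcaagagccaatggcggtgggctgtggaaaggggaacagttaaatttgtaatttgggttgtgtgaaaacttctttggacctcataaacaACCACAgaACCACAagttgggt
Zbtb7b, second start, chr3:89387622-89387921, minus strand: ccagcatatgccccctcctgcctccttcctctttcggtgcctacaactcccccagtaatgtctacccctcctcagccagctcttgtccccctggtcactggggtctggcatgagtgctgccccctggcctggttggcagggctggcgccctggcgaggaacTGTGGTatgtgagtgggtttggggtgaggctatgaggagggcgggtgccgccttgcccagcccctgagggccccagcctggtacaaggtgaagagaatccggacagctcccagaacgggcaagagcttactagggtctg

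At least 1 of these RUNX motifs stood in 22.4% of all 32851 promoter windows of this length, TGTGGT in 16.8% and TGCGGT in 6.45%. The Cd8a match lay at positions 44 to 49, counted from 1 at the start, and the Zbtb7b match began 89 bases before the second start. The first starts of Runx3 and Runx1 each held TGTGGT 2 times on the minus strand of the window with starts 8 bases apart, within a stretch of 18 bases that both windows share, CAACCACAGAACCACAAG. This spacing was searched for after it had been seen. It was found in 7 of the 32851 windows (0.0213%), 1 each for Runx1, Runx2, Runx3, Olfr24, Gm12236, Gm15462 and Gm16225. Eomes, Tbx21, Cbfb and the other starts of Runx1, Runx3 and Zbtb7b had no match in their windows, and the T-box motif TCACACCT was in none of the 10 windows and in 1.28% of all windows. A match is a run of letters and was not tested as a binding site, and counts per gene do not say which start was used.

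The coreceptor genes took opposite positions in the libraries. Cd4 (Entrez gene 12504, chromosome 6, 124864693 to 124888247 in GRCm38.p6, as all positions here) had levels of 482, 167 and 470.4 CPM, a mean of 373 ± 178 CPM (SD, n = 3). Cd8a (Entrez gene 12525, chromosome 6, 71373427 to 71379171), which encodes the CD8 alpha chain, was read at 8.67, 526 and 135 CPM (223 ± 269.7). Cd8b1 (Entrez gene 12526, chromosome 6, 71322788 to 71337492), which encodes the beta chain, was read at 18.2, 421 and 123 CPM (188 ± 209). Replicate 2 was the lowest library for Cd4 and the highest for both CD8 chains, and replicate 1 stood far below the others for both CD8 chains.

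Behind these levels were 4559, 2345 and 6194 reads of Cd4 and 82, 7376 and 1780 reads of Cd8a. The counting intervals of Cd8a were 6.89 to 10.8, 514 to 538 and 129 to 142 CPM and did not meet. Those of Cd4 met in replicates 1 and 3 (468 to 496 and 459 to 482 CPM) and lay apart in replicate 2 (161 to 174 CPM). Cd8a was 60.7-fold higher in replicate 2 than in replicate 1 and 3.89-fold higher than in replicate 3, while Cd8b1 was 23.2-fold and 3.42-fold higher. Cd4 was 2.88-fold higher in replicate 1 and 2.81-fold higher in replicate 3 than in replicate 2.

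**Figure D1:**
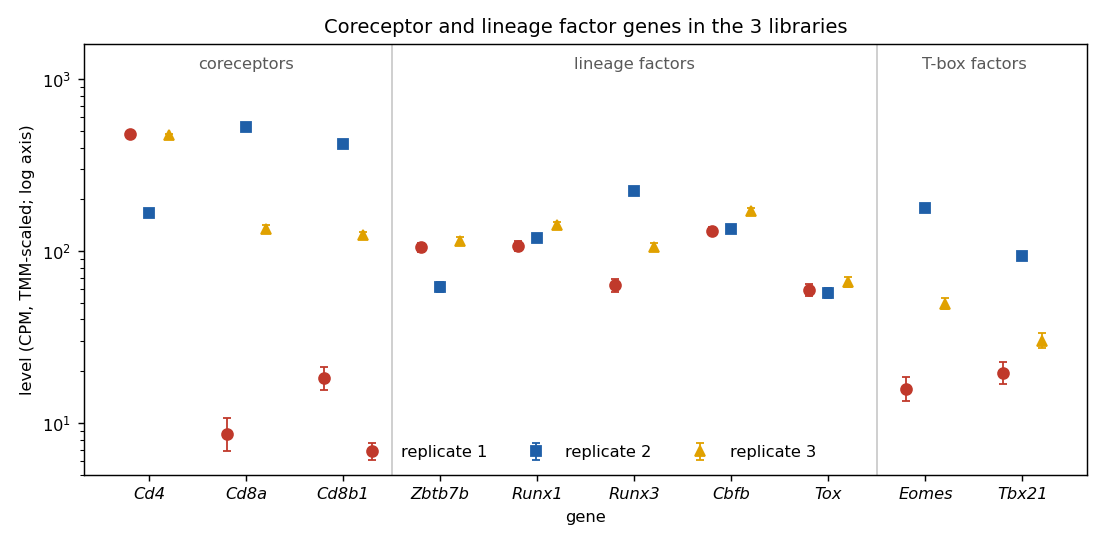
Level of each gene in each library in CPM on a log axis, with 95% counting intervals as bars, for the coreceptor genes, the lineage factors and the T-box factors. Cd4 and Zbtb7b had their lowest point in replicate 2, Cd8a, Cd8b1, Runx3, Eomes and Tbx21 had their highest point there, and Runx1, Cbfb and Tox stayed within 1.32-fold.

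A ratio of counts within a library does not depend on how the library is scaled. The Cd4 to Cd8a ratio of counts was 55.6, 0.318 and 3.48, with intervals of 44.7 to 70.04, 0.303 to 0.333 and 3.301 to 3.67, a 175-fold range. Without replicate 1 the range of its log2 was 3.45, against 7.45 with all libraries. Stated as a share of the reads of both genes, Cd4 took 98.2% (exact Clopper-Pearson interval 97.8 to 98.6%), 24.1% (23.3 to 24.99%) and 77.7% (76.7 to 78.6%). Per kilobase of gene length the ratio was 56.2, 0.322 and 3.52, so Cd4 stood above Cd8a in replicates 1 and 3 and below it in replicate 2. With Cd8b1 in place of Cd8a the ratio was 26.5, 0.397 and 3.82, with the libraries in the same order and a 66.8-fold range.

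The CD8 chains did not keep 1 ratio to each other. Alpha and beta chains pair on conventional CD8 T cells, and alpha chains pair with each other on some dendritic cells and unconventional lymphocytes. The Cd8a to Cd8b1 ratio of counts was 0.477, 1.25 and 1.097, with intervals of 0.362 to 0.624, 1.21 to 1.29 and 1.03 to 1.17. Replicate 1 was lowest and apart from the others, on 82 and 172 reads. Per kilobase the ratio was 0.216, 0.565 and 0.496, with Cd8b1 above Cd8a in each library. Markers of type 1 dendritic cells, some of which carry CD8 alpha, were low, with a sum over 5 genes of 41.2, 36.1 and 22.3 CPM. Their defining receptor gene Xcr1 was read at 4.33, 0.784 and 0.911 CPM and none of the 5 was at 0. Itgae, which some T cells also express, was highest in replicate 2, with 15.1, 24.6 and 13.4 CPM, and made up most of the sum there. The part of these cells in the Cd8a level was not tested.

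The sum of Cd4 and Cd8a was more even than either gene, with 490.4, 693 and 606 CPM. The reference for T cell RNA was the geometric mean of Cd3d, Cd3e, Cd3g and Cd247, which encode the signalling chains of the T cell receptor complex. It was 289, 254 and 329.9 CPM, a 1.297-fold range. Its genes did not move alike: Cd3e was highest in replicate 2 (315, 440 and 378 CPM), where Cd3d, Cd3g and Cd247 were lowest. Without Cd3e the reference was 280, 212 and 315 CPM, a 1.49-fold range. Relative to the reference with Cd3e, Cd4 stood at 1.67, 0.657 and 1.43 and Cd8a at 0.03002, 2.07 and 0.4098 times its level. Without Cd3e the values were 1.72, 0.789 and 1.49 for Cd4 and 0.0309, 2.48 and 0.429 for Cd8a. The opposite positions of Cd4 and of the CD8 chains were also present when levels were set against CD3 chain genes. References with such small ranges could not have changed that, and a shared reference leaves the Cd4 to Cd8a ratio as it was.

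**Figure D2:**
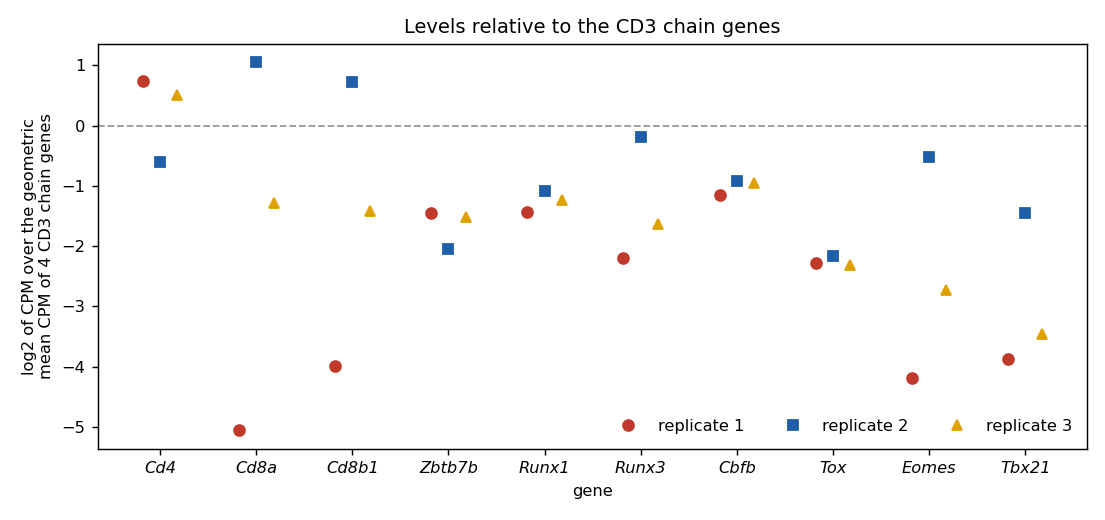
Level of each gene in each library as the log2 of its CPM over the geometric mean CPM of Cd3d, Cd3e, Cd3g and Cd247, with a dashed line where both are equal. Cd4 had its lowest point in replicate 2 and both CD8 chains had their highest there, while Tox, Cbfb and Runx1 had points close together.

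Among the factors, Zbtb7b was lowest in the library where Cd4 was lowest, though by less. Zbtb7b (Entrez gene 22724, chromosome 3, 89377644 to 89393673), whose product ThPOK keeps CD4 cells from taking the CD8 programme, had levels of 105, 61.8 and 115 CPM (93.9 ± 28.2). Its lowest library was replicate 2, apart from the others by counting interval (57.7 to 66.01 CPM there, against 98.7 to 112 and 109 to 121 CPM), and replicates 1 and 3 overlapped. The fold from replicate 2 was 1.70 to replicate 1 and 1.86 to replicate 3. For each read of Cd4 there were 0.218, 0.369 and 0.244 reads of Zbtb7b, so that the ratio was highest where Cd4 was lowest. Replicate 1 in place of replicate 3 was its highest library in plain CPM and with mitochondrial genes left out of the totals. Relative to the CD3 chains Zbtb7b stood at 0.364, 0.243 and 0.348 times the reference. Without Cd3e in the reference the values lay closer together, at 0.375, 0.291 and 0.364.

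Its relative Zbtb7a, which encodes the related factor LRF, did not share this pattern. Zbtb7a was read at 122, 247 and 167 CPM, highest in replicate 2, and the Zbtb7b to Zbtb7a ratio of counts was 0.863, 0.25 and 0.686. Zbtb7c had 9, 0 and 1 reads. In GENCODE M21, 2.07% of the exonic bases of Zbtb7b were shared with a gene on the opposite strand. For Eomes, Tox and Runx1 the share was 2.84%, 3.42% and 0.881%. Whether counting used strand is not known from the labels, and without it reads of such partners cannot be told apart from reads of these genes.

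Runx3 had the library order of the CD8 chains. Runx3 (Entrez gene 12399, chromosome 4, 135120645 to 135177990), the RUNX factor that CD8 T cells and NK cells rely on, was read at 63.1, 224 and 106 CPM (131 ± 83.1). The libraries stood in the order of Cd8a, with counting intervals of 58.1 to 68.4, 216 to 232 and 100.5 to 112 CPM that did not meet. Runx3 was 3.55-fold higher in replicate 2 than in replicate 1, a smaller step than the 60.7-fold of Cd8a. There were 7.28, 0.425 and 0.784 reads of Runx3 for each read of Cd8a. In replicate 1, where Cd8a was at 8.67 CPM, Runx3 was thus still read 597 times.

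Runx1 and Cbfb were nearly even. Runx1 (Entrez gene 12394, chromosome 16, 92601466 to 92826074), which works in early thymocytes and in all mature T cells, was read at 107, 119.5 and 141 CPM (122 ± 17.2). Cbfb (Entrez gene 12400, chromosome 8, 105170674 to 105217989), which encodes the partner that every RUNX protein needs for stable DNA binding, was read at 130.4, 135 and 171 CPM (145 ± 22.1). Both were highest in replicate 3, with ranges of 1.32-fold and 1.31-fold, and the Runx1 to Cbfb ratio of counts was 0.82, 0.885 and 0.825 with intervals that met. Which of replicates 1 and 2 was lower depended on the scaling: with mitochondrial genes left out of the totals, replicate 2 was lowest for both genes.

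The ratio between RUNX factors differed between libraries. The Runx3 to Runx1 ratio of counts was 0.59, 1.87 and 0.752. Per kilobase it was 1.12, 3.54 and 1.42, with Runx3 above Runx1 in each library. Runx2, the third member of the family, was read at 23.6, 86.3 and 23.2 CPM, also highest in replicate 2. The Zbtb7b to Runx3 ratio of counts, 1.67, 0.276 and 1.08 (intervals 1.5 to 1.85, 0.256 to 0.298 and 1.01 to 1.17), placed the libraries in the order of the Cd4 to Cd8a ratio. Its range was 6.04-fold against 175-fold for the coreceptors.

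**Figure D3:**
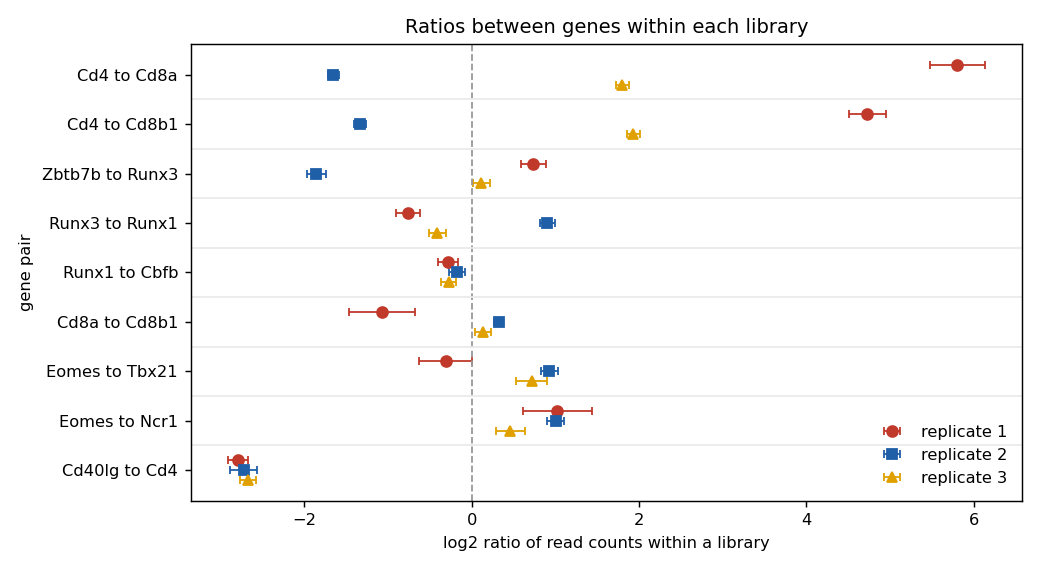
Log2 ratio of read counts between pairs of genes within each library, with 95% counting intervals as bars and a dashed line where the counts are equal. The ratios Cd4 to Cd8a, Cd4 to Cd8b1 and Zbtb7b to Runx3 had replicate 2 lowest and replicate 1 highest, while Runx1 to Cbfb and Cd40lg to Cd4 were nearly the same in the 3 libraries.

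Tox was the most even of the 10 genes. Tox (Entrez gene 252838, chromosome 4, 6686353 to 6991557) encodes a nuclear factor that thymocytes need to become CD4 cells and that chronically stimulated CD8 T cells use later. It was read at 59.3, 56.9 and 66.2 CPM (60.8 ± 4.84), a 1.16-fold range. The counting interval of replicate 1 met those of both other libraries, while those of replicate 2 (53.0 to 61.0003 CPM) and replicate 3 (61.9 to 70.8 CPM) lay apart. That range exceeded those of 7.75% of the 15490 genes that had 10 or more counts in sum. Its relatives differed: Tox2 was read at 15.7, 1.43 and 11.5 CPM, lowest in replicate 2, Tox3 at 2.96, 0.856 and 0.456 CPM, and Tox4 at 79.6, 98.4 and 80.7 CPM.

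The T-box factors Eomes and Tbx21, which drive effector and memory programmes of CD8 T cells and the maturation of NK cells, were both highest in replicate 2. Eomes (Entrez gene 13813, chromosome 9, 118478186 to 118486132) was read at 15.9, 177 and 49.5 CPM (80.9 ± 85.3). Tbx21 (Entrez gene 57765, chromosome 11, 97098007 to 97115331), which encodes T-bet, was read at 19.7, 93.3 and 30.2 CPM (47.7 ± 39.8). The 3 libraries stood in the order of Cd8a for both genes and their counting intervals did not meet. Eomes was 11.2-fold and Tbx21 4.75-fold higher in replicate 2 than in replicate 1. The Eomes to Tbx21 ratio of counts was 0.806, 1.9 and 1.64, with intervals of 0.646 to 1.005, 1.78 to 2.04 and 1.45 to 1.87, lowest in replicate 1.

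NK cell markers had the same library order. The 5 genes Ncr1, Klrb1c, Klre1, Klrk1 and Gzma summed to 65.9, 409.9 and 194 CPM, none was at 0, and Ncr1, which encodes the NK receptor NKp46, was read at 7.82, 88.6 and 36.0 CPM. There were 2.03, 2.003 and 1.38 reads of Eomes for each read of Ncr1, a 1.47-fold range, against 1.83, 0.337 and 0.366 reads of Eomes for each read of Cd8a, a 5.42-fold range. These ranges depend on the genes chosen, and that of Eomes to Cd8a rested on replicate 1, with 82 reads of Cd8a. Between replicates 2 and 3 Eomes to Cd8a was the steadier of these ratios. From replicate 1 to replicate 2 Eomes rose 11.2-fold and Ncr1 11.3-fold, while the other NK markers rose 3.97-fold (Klrk1) to 15.8-fold (Klre1). Cd8b1 rose 23.2-fold, less than the 60.7-fold of Cd8a. For Tbx21 the ratio to Ncr1 was 2.51, 1.05 and 0.838. Cd8a itself had 1.11, 5.94 and 3.76 reads for each read of Ncr1. Gamma delta T cell genes were highest in replicate 2 as well, with a sum over 4 genes of 12.7, 75.5 and 25.98 CPM and the delta chain gene Trdc at 4.97, 51.6 and 15.3 CPM. The part of NK cells and of gamma delta T cells in the levels of Eomes, Tbx21 and Runx3 was not tested.

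Over the 10 genes, 5 had the library order of Cd8a, with replicate 2 highest and replicate 1 lowest: Cd8a, Cd8b1, Runx3, Eomes and Tbx21. That order was held by 23.3% of the 15490 genes that had 10 or more counts in sum. All 5 spanned more than 2-fold, as 3.72% of those genes did in this order. The order of the Cd4 to Cd8a ratio, with replicate 1 highest and replicate 2 lowest, was that of Cd4 alone (30.3% of genes). Replicate 2 was lowest for Cd4, Zbtb7b and Tox (41.3% of genes) and, with a span over 2-fold, for Cd4 alone (26.5%). Since the pattern of Cd4 and Cd8a was known when the genes were chosen, nothing is read from these counts.

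In size, the difference between replicate 2 and the other libraries placed several of the genes at the edge of the table. On the log2(CPM + 1) scale, replicate 2 exceeded the mean level of replicates 1 and 3 by 2.85 for Cd8a, the largest value among the 15490 genes, 2.56 for Cd8b1, 2.41 for Eomes, 1.86 for Tbx21 and 1.39 for Runx3. The values were -1.50 for Cd4, -0.82 for Zbtb7b, -0.16 for Cbfb, -0.14 for Tox and -0.05 for Runx1. The median of the 10 genes was 0.67 and that of all genes -0.13. As percentiles of all genes, Runx3 stood at 99.2, Runx1 at 54.7, Tox at 49.8, Cbfb at 48.8, Zbtb7b at 20.7 and Cd4 at 5.97. The genes were chosen with the pattern of Cd4 and Cd8a known, so nothing is read from these places.

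Per length, which is the scale on which genes can be compared, Cd8b1 had the highest mean level with 305 ± 370.2 TPM (reads scaled by gene length and then by library), followed by Cd4 (239 ± 93.1), Cd8a (166 ± 214), Cbfb (103 ± 15.8) and Runx3 (74.2 ± 57.9). Zbtb7b (51.4 ± 9.58), Eomes (49.9 ± 58.1), Tox (44.1 ± 4.57), Tbx21 (42.04 ± 40.8) and Runx1 (34.5 ± 6.21) came after them. In this order no neighbours differed by more than the larger of their SDs. The order changed with the library: in replicate 1 Cd4 led with 295 TPM and Cd8a was last with 5.25 TPM, while in replicate 2 Cd8b1 led with 724 TPM and Runx1 was last with 39.5 TPM. Cd8a stood at the 40.04th percentile of all genes by TPM in replicate 1, at the 98.8th in replicate 2 and at the 90.7th in replicate 3.

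**Figure D4:**
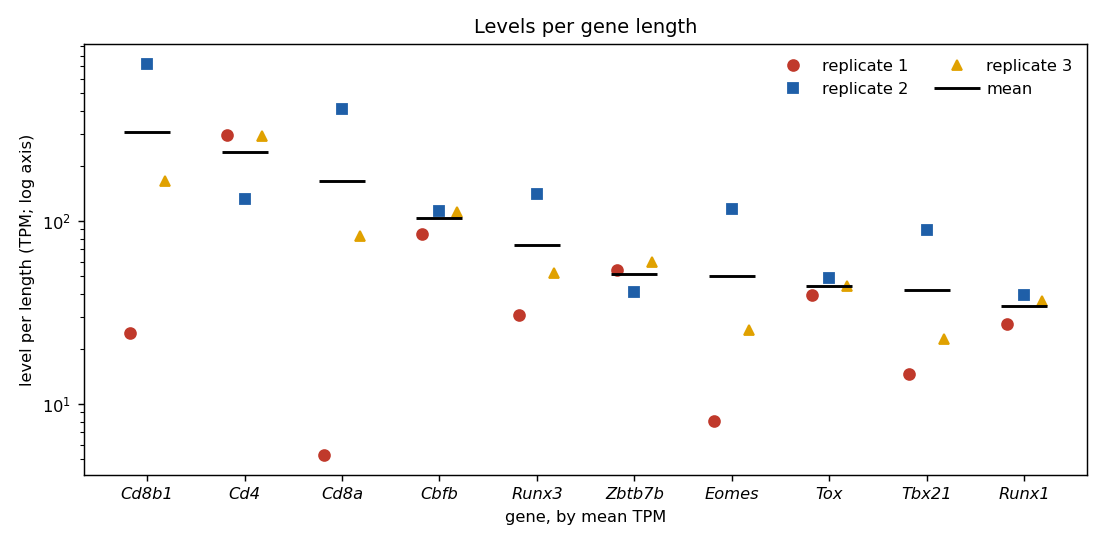
Level per gene length in TPM on a log axis for each gene and library, ordered by mean TPM, with the mean as a black line. The points of Cd8b1, Cd8a, Eomes and Tbx21 spread widest, with replicate 1 lowest and replicate 2 highest, while those of Cbfb, Tox, Zbtb7b and Runx1 lay close together.

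Other genes of the same cell fates were taken from lists compiled by role, with earlier results of these data known. The counts over these lists are a description, and nothing is read from them. Among 10 effector genes of CD8 T cells, many of which NK cells also use, 7 had the library order of Cd8a with a span over 2-fold, against 23.3% of all genes in that order and 3.72% with such a span. Ccl5, a chemokine of effector lymphocytes, was read at 37.4, 279 and 102 CPM, and Il2rb, a receptor chain for interleukins 2 and 15, at 125, 451 and 195 CPM. Prf1, which encodes the pore-forming protein perforin, was read at 18.5, 93.9 and 35.1 CPM. Gzmk, a granzyme, had its highest value in replicate 3, with 1.80, 1.36 and 4.03 CPM, and Fasl was even at 18.4, 18.5 and 22.4 CPM. The list's median of the log2 difference between replicate 2 and the others was 1.63.

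Among 10 genes of CD4 helper and regulatory T cells, 8 were lowest in replicate 2 and each of these spanned more than 2-fold, against 41.3% of all genes lowest there and 26.5% with such a span. Cd40lg, the ligand with which helper cells license other leukocytes, was read at 69.7, 25.3 and 73.6 CPM, and Foxp3, the factor of regulatory T cells, at 53.8, 26.9 and 54.2 CPM. Ctla4 was read at 48.8, 11.8 and 58.1 CPM. The ratio of Cd40lg to Cd4 was steady, with 0.145, 0.151 and 0.156 reads for each read of Cd4. The ratio of Foxp3 to Cd4 was 0.112, 0.161 and 0.115. The exceptions were Bcl6 (42.5, 43.6 and 32.05 CPM) and Cxcr5 (58.9, 48.4 and 45.3 CPM), both used by follicular helper cells and B cells. The list's median difference was -1.06.

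Among 14 other regulators of T cell fate, 7 had the order of Cd8a, against 23.3% of all genes. Of these, 1 spanned more than 2-fold, near the 3.72% of all genes: Myb, with 75.3, 172 and 102 CPM. Gata3, which acts ahead of Zbtb7b in CD4 commitment, was even at 65.5, 69.6 and 70.5 CPM. Tcf7 and Lef1, which take part in both fates, were read at 793, 1228 and 988 CPM and at 404, 641 and 595 CPM. Patz1, a repressor of Zbtb7b in CD8 cells, was read at 53.8, 74.5 and 58.6 CPM. Id2, an inhibitor of E proteins, was lowest in replicate 2, with 142, 64.1 and 87.2 CPM. The list's median difference was 0.29, closer to 0 than that of either T cell effector list.

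**Figure D5:**
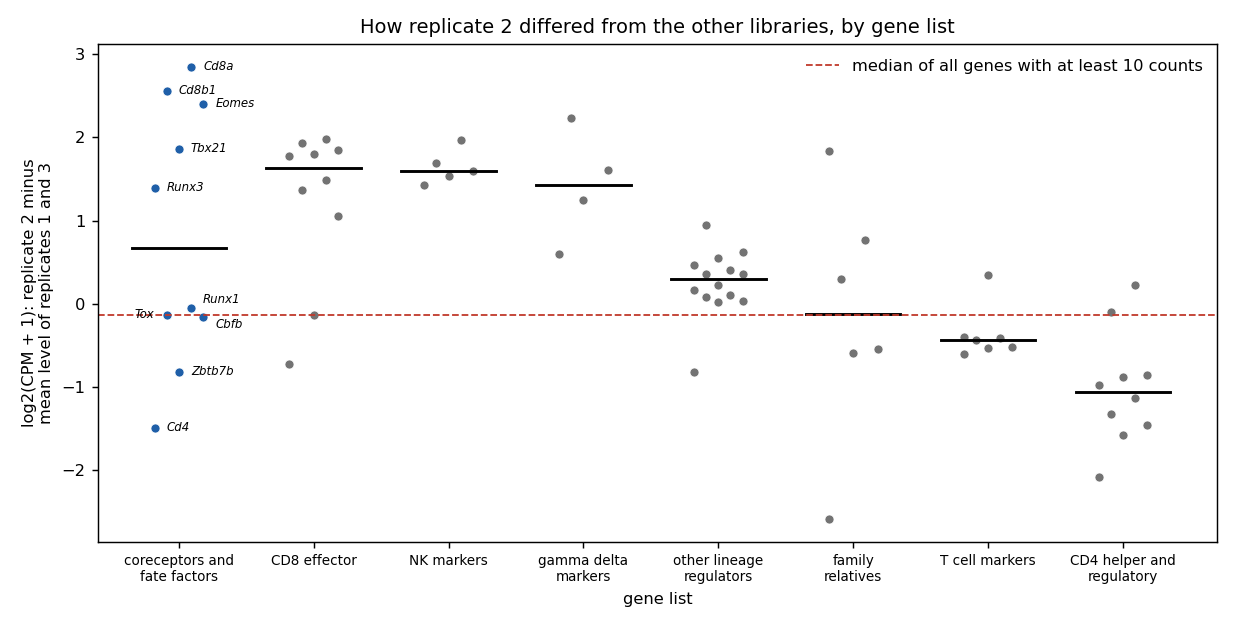
Difference between replicate 2 and the mean level of replicates 1 and 3 on the log2(CPM + 1) scale for each gene of 8 lists, with the median of each list as a black line and the median of all genes as a dashed line. Cd8a, Cd8b1 and Eomes lay above every CD8 effector and NK gene shown, and Cd4 lay among the lower CD4 helper and regulatory genes.

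The 5 genes whose profile over the 3 libraries lay nearest to that of Cd4 were Izumo1r, Mphosph6, Cd40lg, Ly6a and Ptpn13, at Euclidean distances of 0.0659 to 0.116 log2 units among 8135 protein-coding genes with a mean of at least 10 CPM. Izumo1r, which encodes a folate receptor relative found on regulatory T cells, was read at 64.6, 20.5 and 61.97 CPM. Nearest to Cd8a, apart from Cd8b1 at 1.00, were Klre1, Adgrg5, Ncr1, Samd3 and Klrd1 at 1.62 to 1.85 log2 units. Klre1, Ncr1 and Klrd1 encode NK receptors, and Klrd1 was also counted above among the CD8 effector genes. Eomes lay at 1.88 from Cd8a, in place 7 among those genes, Tbx21 at 2.79 in place 32 and Runx3 at 2.94 in place 54, while Zbtb7b lay at 0.569 from Cd4 in place 131. With 3 libraries many genes share a profile, so a place says only how alike these values were.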

How the data were processed

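The authors deposited whole-number read counts per gene for 17857 genes in 3 libraries, each with its length and an Entrez ID, per the file headers. STAR 2.75, featureCounts, DESeq2 1.18.1, bcl2fastq and the build mm10 are named, without roles, per the submitters' processing notes. The annotation, strand setting and filters are not given in the sources used here. The counts were used as deposited. CPM was computed with TMM factors of 1.04, 1.01 and 0.95 for replicates 1, 2 and 3 (edgeR 4.0.16) and TPM from the deposited lengths. Of the symbols, 25 had the form of dates and were restored by identifier. Identifiers of 17795 genes matched RefSeq (GRCm38.p6), which gave coordinates, counted from 1. Percentiles, shares and medians over all genes use the 15490 genes that had 10 or more counts in sum. Counting intervals are exact 95% Poisson intervals for levels and exact Clopper-Pearson intervals for shares and ratios. The exact interval of 0 reads reached up to 0.263 CPM in replicate 2. As a floor for orientation, 3 reads correspond to 0.317, 0.214 and 0.228 CPM.

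No test was run, since there is 1 group. The genes and lists were chosen with earlier results of these data known. All 10 genes, the lists and the 5 nearest profiles to Cd4 and to Cd8a were to be named, the last by Euclidean distance of centred log2(CPM + 1). No libraries agreed within sampling noise (chi-square per degree of freedom 118, 42.7 and 67.4 for the pairs). The computation of orders and distances was tested on simulated counts with sampling noise alone. That does not show how stable they are in these libraries. Alternatives used DESeq2 1.42.0 size factors, plain CPM, totals without mitochondrial genes, other reference genes, other thresholds and leaving out each library.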

Additional observations from a re-analysis of the deposited data

How the results depend on the processing

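No paired analysis was possible because there is 1 group. The Cd4 to Cd8a ratio kept its side of 1 in each library with 1 added to each count, per kilobase, and with Cd8b1 as the denominator, where its log2 was 4.73, -1.33 and 1.93 in replicates 1, 2 and 3, against 5.80, -1.65 and 1.80 with Cd8a. Its log2 range of 7.45 over the libraries was 3.45 to 7.45 with 1 library left out, 3.45 without replicate 1 and 3.998 without replicate 2. Cd8a, Cd8b1, Runx3, Eomes and Tbx21 kept their library order under each scaling tried. Relative to the CD3 chains 7 genes had that order, Runx1 and Cbfb having joined them. That scale raises replicate 2 against the others for every gene, and the share of all genes was not computed on it. The order of Cd4 was shared by 1 gene more with plain CPM (2 in all, beside 32.3% of all genes). It was held by 3 in all with mitochondrial genes left out of the totals (38.3% of all genes) and by 2 relative to the CD3 chains. Replicate 2 was lowest for 3 of the 10 genes, for 5 with mitochondrial genes left out, and for 2 relative to the CD3 chains or with counting intervals apart, which was a choice made after the data were seen, as was the count itself. The share of all genes lowest there was 41.3% with TMM factors and was not computed for the other settings. Totals without mitochondrial genes were used without TMM factors, so plain CPM is the setting to compare them with. The median log2 difference of all genes, replicate 2 minus replicate 1, was -0.35 there, -0.18 in plain CPM and -0.14 with TMM factors. The order of Cd8a was held by 15.2%, 22.3% and 23.3% of genes in these settings. Of the 5 genes nearest to Cd4, 2 were shared with a prior of 5 CPM and 1 with a minimum of 50 CPM, and of those nearest to Cd8a 4 and 0, where the higher minimum takes out all 5. Of the other alternative values, 111 stayed within their limit and 7 moved beyond it. The limit was the SD between the 3 libraries, or a fold change for the shares of all genes. Leaving out 1 of 3 libraries cannot move a mean by a whole SD, so those values had to stay. Those that moved were the share of 15.2% above and the mean of Tox (69.6 CPM without mitochondrial genes). Relative to T cell receptor constant genes they were Zbtb7b, Runx1, Cbfb and Tox. Relative to CD3 chains without Cd3e, a reference added after the data were seen, it was Tox. Low depth limits Cd8a in replicate 1 (82 reads) most. The libraries also differed in the share of mitochondrial reads, with 17.8%, 6.22% and 13.1% in replicates 1, 2 and 3. Genes without a read numbered 632, 3788 and 2199, most in replicate 2 although it held the most reads.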
